A study of Mus musculus with 13 samples.

Results

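The 45 genes described here encode cyclins, cyclin-dependent kinases (Cdks), Cdk inhibitors, E2f factors and their DP partners, the Rb pocket proteins, and the phosphatases, kinases, adaptors and transcription factors that act on them. They were taken by gene symbol from a written list and are 45 of the 21100 genes in the table. All 45 had a value in every tumor and all 45 passed the filter on low counts, with 41 counts as the lowest in any tumor.

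In brief, cyclins bind and activate Cdks, and cyclin D with Cdk4 or Cdk6 phosphorylates the pocket proteins, which otherwise hold E2f factors in check. Released E2f factors switch on cyclin E and the genes of DNA replication, and later B-Myb and Foxm1, with the MuvB complex, switch on the genes of mitosis. In basal cell carcinoma (BCC), Hedgehog signaling is active through loss of Ptch1, and cyclin D genes are among the known targets of the Gli factors.

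The study compared 9 GEM-BCC tumors from 7 mice with 4 Tp-BCC tumors from 4 mice by bulk RNA sequencing of poly(A) RNA, to see how far a transplanted tumor resembles the genetically induced one. GEM-BCC tumors grew intradermally in female mice of the strain Ptch1+/- K14-CreER2 p53fl/fl, after 3 intraperitoneal injections of 300 µg tamoxifen and 1 X-ray dose of 4 Gy. This is the spelling of the sample labels, and the study writes K14-CreERT2. In these mice Cre is driven by the keratin 14 promoter, so p53 is deleted in keratin 14-expressing cells only. Tp-BCC tumors grew under the skin of the right flank of female Ptch1+/-p53fl/fl hosts, which carry no Cre, after inoculation of 2000000 cells. Ages were not given in the labels. All 4 Tp-BCC tumors descend from a single GEM-BCC tumor passaged in mice, and GEM2 and GEM3, like GEM7 and GEM8, shared a mouse. The p-values therefore measure the spread between these tumors, and for Tp-BCC between hosts of 1 tumor line. All GEM-BCC libraries were labelled batch 1 and all Tp-BCC libraries batch 2, so batch and model cannot be told apart.

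Library totals were 28075317 to 32629102 expected counts in GEM-BCC (median 31341353) and 15388027 to 17494912 in Tp-BCC (median 16273529). The Tp-BCC libraries stood apart from each other in pairs. Across 14095 genes, the deviation of a library from the mean of all 13 followed the GC content of transcripts with a Spearman rho of 0.594 in TP2 and 0.591 in TP4, and of -0.389 in TP1 and -0.473 in TP3. Among GEM-BCC libraries rho was 0.365 in GEM1 and -0.312 to -0.150 in the other 8. Genes are not independent replicates, and these values describe the libraries. TP1 and TP3 were also the most alike, with a chi-square per degree of freedom of 13.1, above sampling noise, against 75.6 to 321 for the other Tp-BCC pairs, and they were counted as separate tumors. Results are therefore given for all 4 Tp-BCC tumors and again with TP1 and TP3, or TP2 and TP4, left out. Levels are counts scaled to library size (CPM) after TMM scaling, and GEM-BCC values are given as lowest, median and highest.

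Of the 45 genes, 20 rose in Tp-BCC at an adjusted p under 0.05, against 11.1% of all 14390 tested genes in that direction. None fell at that threshold by edgeR, against 8.35% of all tested genes, although 2 were lower at an unadjusted p under 0.05 and 2 (Ccnd2 and Cdkn2b) were lower by DESeq2. The median log2 fold change of the 45 genes was 0.81, and -0.03 over all tested genes. In 15 of the 45, every Tp-BCC tumor lay above every GEM-BCC tumor, which held for 5.50% of all tested genes, and in none did every Tp-BCC tumor lie below, which held for 4.45%. By the thresholds of the study, an absolute log2 fold change above 2 besides the adjusted p, Ccne2 was the 1 gene called, against 5.57% of tested genes. The study applied that threshold to shrunken DESeq2 fold changes, and here it was applied to edgeR fold changes without shrinkage, of which that of Ccne2 was 2.19. Without TP4 it was 1.75, adjusted p = 0.0244, so that none of the 45 was called. Cdkn3 was called too with GC content removed (2.66), with TP2 and TP4 alone (2.21) and without GEM3, GEM8, TP1, TP2 or TP3 in turn. Mybl2 was called with TP2 and TP4 alone (2.29) and without GEM8, TP1 or TP3 in turn, both were called with counts summed per mouse, and Rb1 was called as lower with TP2 and TP4 alone (-2.61). In bulk tumors, fewer cells of a type and less RNA per cell cannot be told apart.

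**Figure D1:**
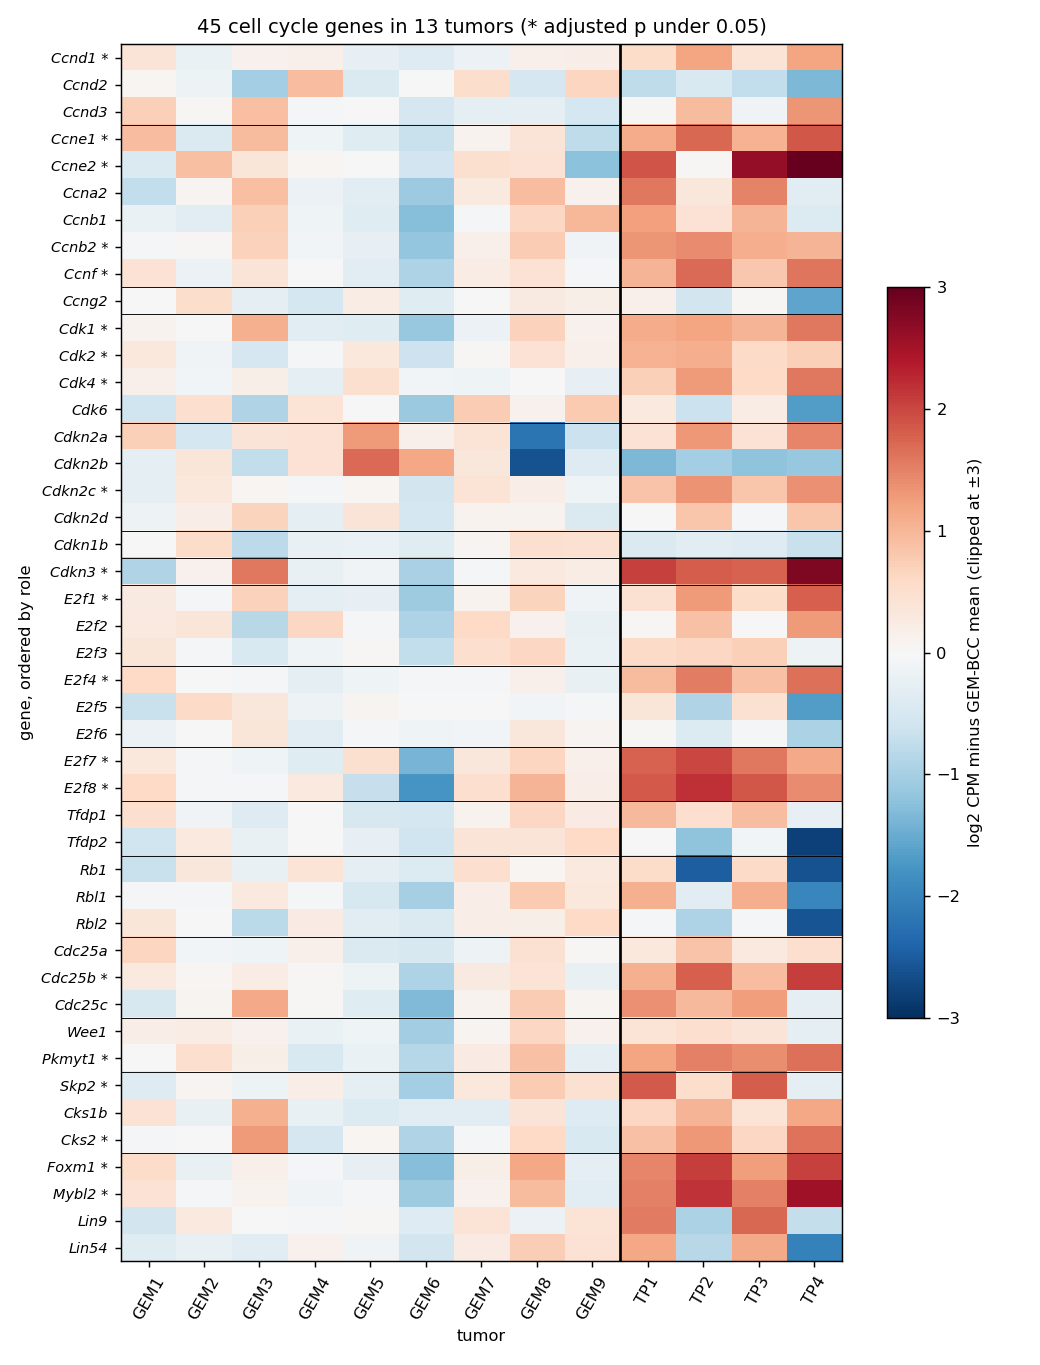
Heat map of the 45 genes (vertical, ordered by role) in the 13 tumors (horizontal), colored by log2 CPM minus the mean of the 9 GEM-BCC tumors and clipped at 3 in either direction. Asterisks mark the 20 genes past an adjusted p of 0.05, and the lower GEM6 column and the split of TP2 and TP4 from TP1 and TP3 in Rb1, Rbl1, Tfdp2 and Lin54 can be seen.

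With TP2 and TP4 alone against GEM-BCC, 23 of the 45 genes rose (19.1% of all tested genes) and 7 fell (23.8%). With TP1 and TP3 alone, 15 rose (5.87%) and none fell (4.51%). Of the 20 genes that rose with all 4 tumors, 19 rose in the first of these comparisons and 11 in the second, and all 20 had a fold change above 0 in both. These 20 were set by the same tumors, so their signs and calls in each pair are descriptions and not separate support. The 1 not past the threshold with TP2 and TP4 was Skp2, and the 9 with TP1 and TP3 were Ccnd1, Ccne1, Ccnf, Cdk1, Cdk2, Cdk4, E2f1, Cks2 and Foxm1. In both, 10 genes rose, namely Ccne2, Ccnb2, Cdkn2c, Cdkn3, E2f4, E2f7, E2f8, Cdc25b, Pkmyt1 and Mybl2, against 2.59% of all tested genes, and none fell, against 2.15%. The sign of the fold change differed between the pairs in 12 of the 45 genes, against 42.5% of all tested genes. With GC content removed from each library, 26 rose (15.1%) and 2 fell (13.3%), the latter again Ccnd2 and Cdkn2b. Of the 20 genes 19 remained, with E2f1 the exception at an adjusted p of 0.0506, and Ccna2 (1.14, adjusted p = 0.0084), Ccnb1 (1.01, adjusted p = 0.0249), E2f3 (0.66, adjusted p = 0.0434), Cdc25a (0.60, adjusted p = 0.0433), Cdc25c (1.05, adjusted p = 0.0275), Cks1b (1.14, adjusted p = 0.0224) and Lin9 (0.96, adjusted p = 0.00563) rose besides. With the GC content of the longest transcript, E2f3 and Cdc25a did not pass (adjusted p = 0.0882 and 0.0882) and Tfdp1 rose (0.94, adjusted p = 0.0072), besides the others named.

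**Figure D2:**
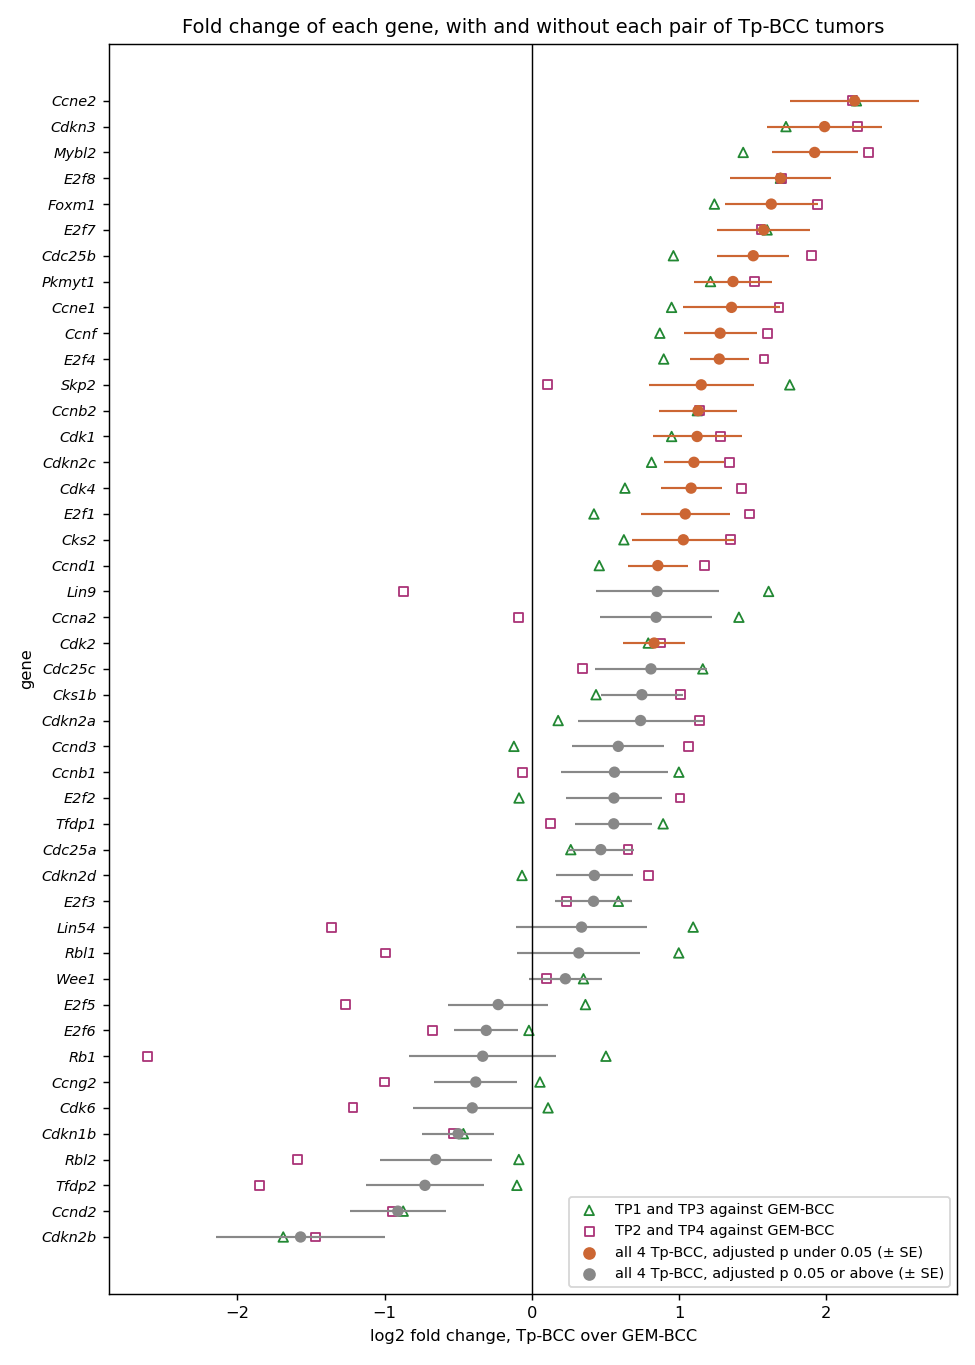
Log2 fold change of Tp-BCC over GEM-BCC (horizontal axis) for each of the 45 genes (vertical axis), as filled points with SE for all 4 Tp-BCC tumors and as open symbols for each pair against the same 9 GEM-BCC tumors. All 20 colored points lie above 0, and 12 genes have open symbols on opposite sides of 0.

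Among the D-type cyclins, which start the cycle with Cdk4 and Cdk6, Ccnd1 rose. Its CPM was 445, 631 and 752 in GEM-BCC and 843, 1319, 769 and 1317 in TP1 to TP4 (log2 fold change 0.86, SE 0.20, adjusted p = 0.00957). Every Tp-BCC tumor lay above every GEM-BCC tumor, with TP2 and TP4 far above TP1 and TP3. Without TP2 the adjusted p was 0.0528, and with TP1 and TP3 alone the log2 fold change was 0.46, adjusted p = 0.174. Ccnd1 was also the D-type cyclin of highest level per length, at 157 CPM per kilobase of the longest transcript in GEM-BCC and 284 in Tp-BCC, against 37.00 and 19.7 for Ccnd2 and 56.8 and 85.3 for Ccnd3. Ccnd2 ranged from 106 to 409 CPM in GEM-BCC and from 85.1 to 157 in Tp-BCC (log2 fold change -0.91, adjusted p = 0.0627), so the groups overlapped. It passed with GC content removed (-0.96, adjusted p = 0.0333), and without GEM3 (-1.05, adjusted p = 0.0229), but not with the GC content of the longest transcript (-0.54, adjusted p = 0.186). Ccnd3 had a log2 fold change of 0.59 (adjusted p = 0.196), with a rise in TP2 and TP4 (1.06) and -0.12 in TP1 and TP3.

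Of the 4 Cdks, 3 rose, against 11.1% of all tested genes. Cdk4, the catalytic partner of D-type cyclins, was at 258, 293 and 433 CPM in GEM-BCC and at 509, 759.6, 468 and 927 in TP1 to TP4 (log2 fold change 1.08, SE 0.21, adjusted p = 0.00248). The groups did not overlap, and TP1 and TP3 were the lower Tp-BCC tumors, with which alone it did not pass (0.63, adjusted p = 0.0668). Cdk2, the partner of cyclins E and A, gave 30.7, 48.96 and 64.02 CPM in GEM-BCC and 97.8, 101, 70.6 and 77.7 in Tp-BCC (log2 fold change 0.83, SE 0.21, adjusted p = 0.0133), again without overlap, though without TP2 the adjusted p was 0.0590. Cdk1, the mitotic kinase, rose by a log2 fold change of 1.12 (adjusted p = 0.0181), with 3 Tp-BCC tumors above the highest GEM-BCC tumor and TP3 below it, and without TP4 the adjusted p was 0.0704. Cdk6, which shares the partners of Cdk4, did not pass (-0.40, adjusted p = 0.498). Its CPM was 66.3 in TP2 and 32.6 in TP4, against 127 and 122 in TP1 and TP3. Per kilobase, Cdk4 was at 153 CPM in GEM-BCC and 325 in Tp-BCC, and Cdk6 at 9.99 and 7.55.

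Among the later cyclins, 4 of 6 rose, against 11.1% of all tested genes. Ccne2, a cyclin E gene of the G1/S transition, had the highest fold change of the 45 genes. It gave 1.55, 3.86 and 7.01 CPM in GEM-BCC and 13.9, 3.79, 23.6 and 32.8 in TP1 to TP4 (log2 fold change 2.19, SE 0.44, adjusted p = 0.00312). The groups overlapped, since TP2 lay within the GEM-BCC range while the other 3 Tp-BCC tumors lay above it. The other cyclin E gene, Ccne1, was at 6.60, 10.3 and 21.7 CPM in GEM-BCC and 24.4, 37.5, 23.2 and 41.1 in Tp-BCC (log2 fold change 1.36, SE 0.33, adjusted p = 0.0104). All 4 Tp-BCC tumors were above all GEM-BCC tumors, with TP1 and TP3 close to GEM1 and GEM3, and with TP1 and TP3 alone it did not pass (0.95, adjusted p = 0.153).

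Ccnb2, a B-type cyclin of mitosis, had 15.97, 34.5 and 61.5 CPM in GEM-BCC and 90.4, 95.9, 76.7 and 72.5 in TP1 to TP4 (log2 fold change 1.13, SE 0.27, adjusted p = 0.00912). The 4 Tp-BCC tumors were close together and all above GEM-BCC, and either pair alone gave nearly the same value (1.14 and 1.12). Ccnf, the F-box cyclin of an SCF ubiquitin ligase, had 14.95, 29.1 and 38.5 CPM in GEM-BCC against 58.3, 93.5, 50.5 and 86.96 (log2 fold change 1.28, SE 0.25, adjusted p = 0.00261), without overlap, and with TP1 and TP3 alone did not pass (0.87, adjusted p = 0.0622). Ccna2, which serves S phase and G2, was the later cyclin of highest mean CPM and did not pass. It was at 32.4, 74.01 and 131 CPM in GEM-BCC and at 209, 88.1, 196 and 55.3 in TP1 to TP4 (log2 fold change 0.84, SE 0.38, adjusted p = 0.13). TP1 and TP3 were above every GEM-BCC tumor and TP2 and TP4 within their range, so it rose with TP1 and TP3 alone (1.41, adjusted p = 0.0382) and had the opposite sign with TP2 and TP4 (-0.088). Ccnb1 split in sign in the same way (0.998 and -0.064), but did not pass with TP1 and TP3 alone (adjusted p = 0.131). Cyclin G2, linked to cell cycle exit, gave 47.2, 67.6 and 97.1 CPM in GEM-BCC and 75.1, 46.5, 68.95 and 22.5 in Tp-BCC (log2 fold change -0.38, SE 0.28, adjusted p = 0.356), with TP2 and TP4 below all GEM-BCC tumors. It fell with TP2 and TP4 alone (-1.004, adjusted p = 0.0226) and had the opposite sign with TP1 and TP3 (0.055) and with GC content removed (0.019).

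**Figure D3:**
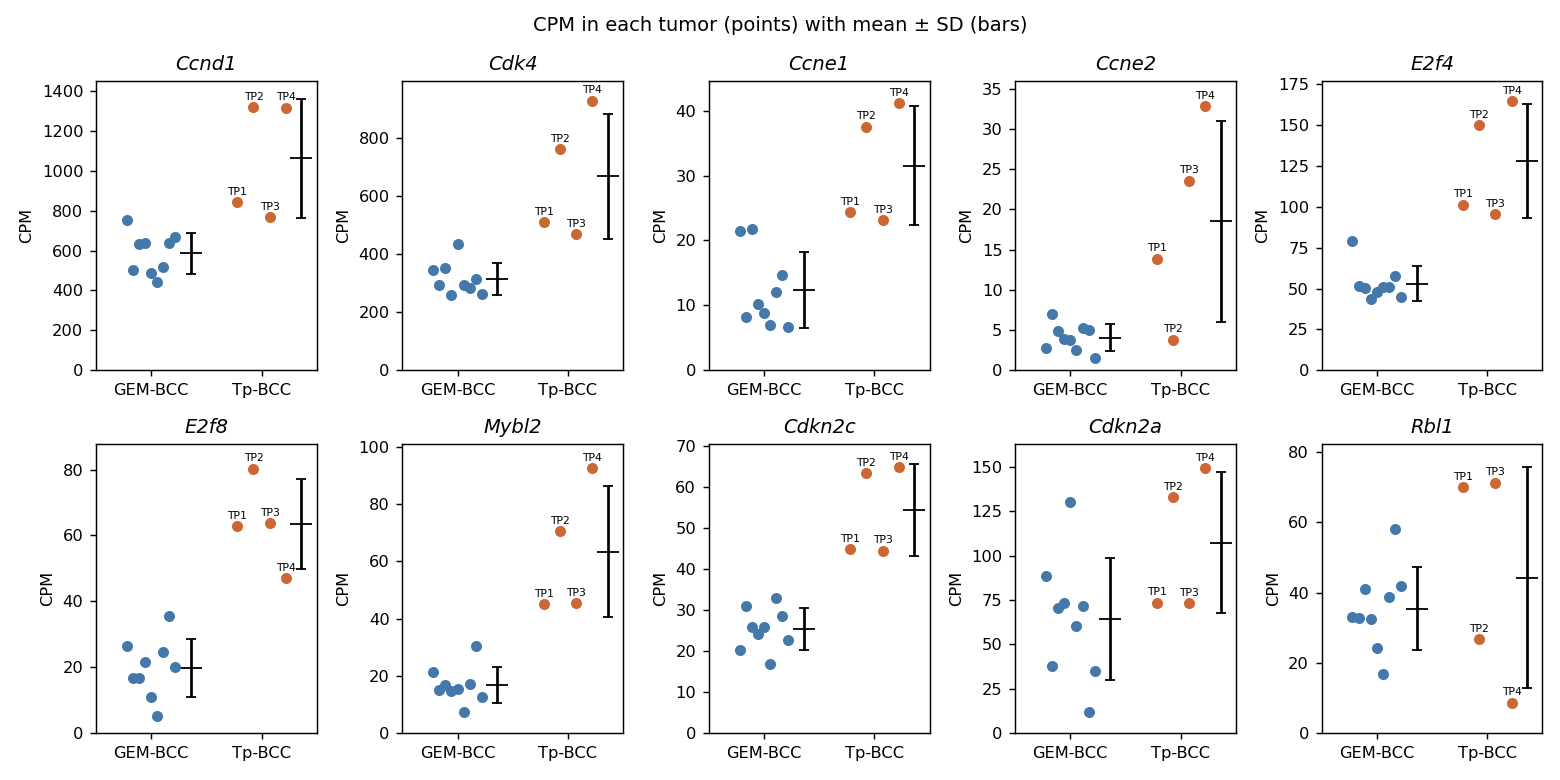
CPM (vertical axes, from 0) of 10 of the 45 genes in each of the 9 GEM-BCC and 4 labelled Tp-BCC tumors (points), with mean ± SD beside them. Ccnd1, Cdk4, Ccne1, E2f4, E2f8, Mybl2 and Cdkn2c do not overlap between models, TP2 falls among GEM-BCC tumors in Ccne2, and Rbl1 separates TP1 and TP3 from TP2 and TP4.

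Of the 4 Ink4 inhibitors, which bind Cdk4 and Cdk6, 1 rose, against 11.1% of all tested genes. With so few genes this count is not a result about the group. Cdkn2c (p18) went from 16.8, 25.9 and 32.8 CPM in GEM-BCC to 44.7, 63.4, 44.4 and 64.8 in TP1 to TP4 (log2 fold change 1.10, SE 0.20, adjusted p = 0.00177). The groups did not overlap, and it passed with either pair left out. Cdkn2a, whose locus encodes both p16 and p19Arf, so that the counts do not separate these products, was at 11.7, 70.6 and 130.3 CPM in GEM-BCC and 73.5, 133, 73.1 and 149 in Tp-BCC (log2 fold change 0.74, SE 0.42, adjusted p = 0.228). TP2 and TP4 were above all GEM-BCC tumors and TP1 and TP3 within their range, and GEM8 was the lowest tumor at 11.7 CPM. Its neighbor Cdkn2b (p15) was also lowest in GEM8, at 1.37 CPM, within 1.37 to 28.8 over GEM-BCC. In Tp-BCC it held to 3.41 to 4.31 CPM (log2 fold change -1.57, SE 0.57, adjusted p = 0.0656), and it passed with GC content removed (-1.80, adjusted p = 0.0357), with that of the longest transcript (-1.82, adjusted p = 0.0343) and, without GEM8, in edgeR (log2 fold change -1.72, adjusted p = 0.0166). Cdkn2d did not pass (0.42, adjusted p = 0.262), and rose with TP2 and TP4 alone (0.79, adjusted p = 0.0367) but not with TP1 and TP3 (-0.067).

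Cdkn1b (p27), the Kip inhibitor of Cdk2 complexes, gave 29.8, 50.7 and 74.8 CPM in GEM-BCC and 37.97, 41.2, 39.1 and 32.3 in TP1 to TP4 (log2 fold change -0.50, SE 0.24, adjusted p = 0.158). All Tp-BCC tumors lay within the GEM-BCC range, and the sign turned with GC content removed (0.23), while without GEM3 it passed as lower (-0.61, adjusted p = 0.047). Cdkn3, a phosphatase that acts on Cdks, had 2.06, 4.04 and 12.4 CPM in GEM-BCC and 17.2, 14.6, 14.1 and 28.99 in Tp-BCC (log2 fold change 1.99, SE 0.39, adjusted p = 0.00296), with no overlap. GEM3 was the highest GEM-BCC tumor, and TP4 the highest overall.

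Of the activator E2f genes, 1 of 3 rose, against 11.1% of all tested genes, a count too small to be a result about the group. E2f1 was at 14.2, 28.6 and 47.9 CPM in GEM-BCC and 40.7, 71.8, 43.2 and 103 in TP1 to TP4 (log2 fold change 1.04, SE 0.30, adjusted p = 0.0254). TP1 and TP3 were within the GEM-BCC range and TP2 and TP4 above it, and the call was lost without TP2 (adjusted p = 0.0798) or without TP4 (0.148). E2f2 (0.56, adjusted p = 0.242) and E2f3 (0.42, adjusted p = 0.266) did not pass, and E2f2 rose with TP2 and TP4 alone (1.01, adjusted p = 0.0368) and had a negative fold change with TP1 and TP3 (-0.087).

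E2f4, which acts mainly as a repressor with the pocket proteins, stood apart from the activators in that it passed in every comparison of pairs. Its CPM was 43.3, 50.7 and 79.4 in GEM-BCC and 101, 150.2, 95.5 and 165 in TP1 to TP4 (log2 fold change 1.27, SE 0.20, adjusted p = 5.4e-04). The groups did not overlap, and GEM1 was the GEM-BCC tumor nearest to Tp-BCC. The pairs gave 1.58, adjusted p = 1.3e-04 for TP2 and TP4 and 0.90, adjusted p = 0.012 for TP1 and TP3. The related repressors E2f5 (-0.23, adjusted p = 0.664) and E2f6 (-0.31, adjusted p = 0.326) did not pass with all 4 tumors, and fell with TP2 and TP4 alone (-1.27 and -0.67), with 0.36 and -0.02 for TP1 and TP3, neither past the threshold.

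Both atypical E2f genes, which repress E2f targets without a DP partner, rose, against 11.1% of all tested genes. E2f8 had 5.05, 19.9 and 35.4 CPM in GEM-BCC and 62.8, 80.3, 63.7 and 47.05 in TP1 to TP4 (log2 fold change 1.69, SE 0.34, adjusted p = 0.00368). E2f7 had 1.495, 4.53 and 6.42 CPM against 14.1, 16.5, 12.4 and 9.14 (log2 fold change 1.57, SE 0.32, adjusted p = 0.0032). Neither overlapped between models, GEM6 was the lowest tumor in both, and the pairs gave like values (1.70 and 1.69 for E2f8, 1.56 and 1.60 for E2f7). The DP partners did not pass with all 4 tumors. Tfdp1 had 92.7, 135 and 205 CPM in GEM-BCC and 261, 189, 252 and 113 in Tp-BCC (log2 fold change 0.56, SE 0.26, adjusted p = 0.143), with TP1 and TP3 above all GEM-BCC tumors and TP2 and TP4 within their range. It rose with TP1 and TP3 alone (0.89, adjusted p = 0.0474) and with the GC content of the longest transcript removed (0.94, adjusted p = 0.0072), but not with TP2 and TP4 (0.13, adjusted p = 0.759) or with the median GC content removed (0.59, adjusted p = 0.0639). Tfdp2 had a log2 fold change of -0.73 (adjusted p = 0.212), of -1.85, adjusted p = 0.00472 with TP2 and TP4 alone, and of -0.10, adjusted p = 0.859 with TP1 and TP3.

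None of the 3 pocket protein genes passed, and all 3 separated the pairs of Tp-BCC libraries. Rbl1 (p107) was at 16.8, 33.1 and 58.1 CPM in GEM-BCC and 70.1, 26.7, 71.3 and 8.64 in TP1 to TP4 (log2 fold change 0.32, SE 0.42, adjusted p = 0.616). TP1 and TP3 lay above every GEM-BCC tumor, TP2 within their range and TP4 below it, and the fold change was 0.998 with the first pair and -0.997 with the other. Rb1, shown for its split after its values were seen, had 11.5, 18.9 and 25.7 CPM in GEM-BCC and 26.4, 3.21, 27.1 and 2.93 in TP1 to TP4 (log2 fold change -0.33, SE 0.50, adjusted p = 0.667). Its Tp-BCC tumors lay on both sides of the whole GEM-BCC range, and it fell with TP2 and TP4 alone (-2.61, adjusted p = 2.7e-04) but not with TP1 and TP3 (0.50, adjusted p = 0.281). Rbl2 (p130) fell with TP2 and TP4 (-1.59, adjusted p = 0.011) but not with TP1 and TP3 (-0.089, adjusted p = 0.876). With GC content removed the log2 fold changes were -0.34 for Rb1, 0.54 for Rbl1 and -0.47 for Rbl2, and none passed.

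Over the 45 genes, the gap between the pairs followed the GC content of the longest transcript, with a Spearman rho of 0.81 across genes of 36.3% to 62.5% GC, which is a description of 4 libraries and not a test. Of the 27 genes below 50% GC, 21 were lower in TP2 and TP4 than in TP1 and TP3, and of the 18 others 17 were higher. The 6 below 50% that were not lower were Ccnb2, Cdk1, Cdk2, Cdkn3, Cks1b and Cks2, and the 1 above 50% that was lower was E2f8. The part of GC content in the rise of single genes was not tested beyond the fits with it removed.

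**Figure D4:**
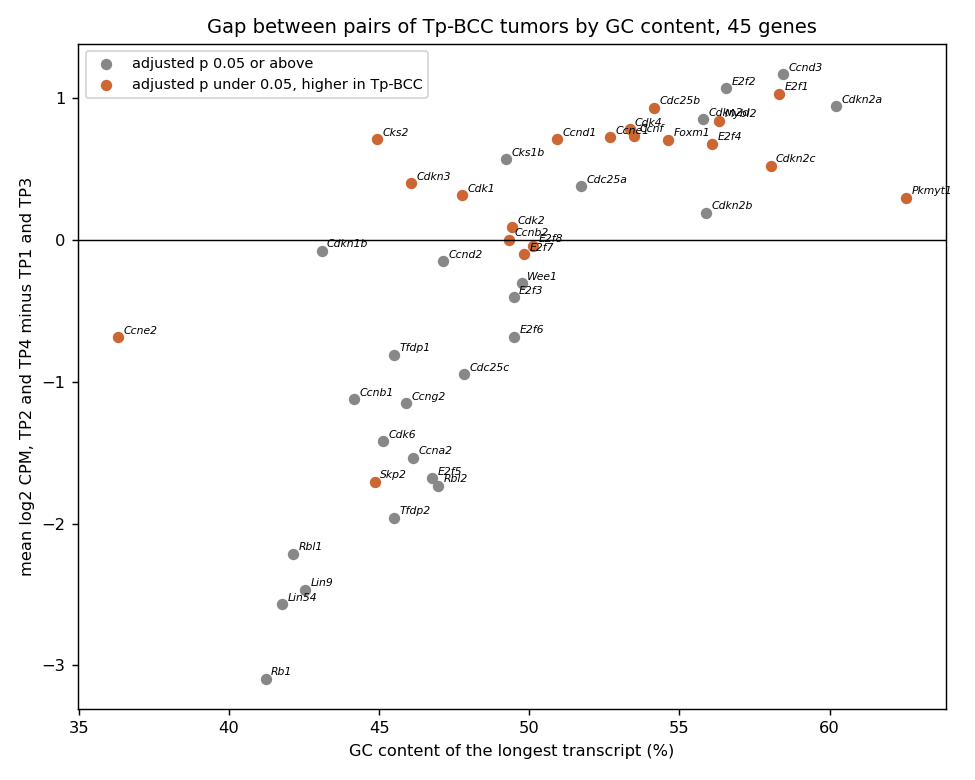
Mean log2 CPM of TP2 and TP4 minus that of TP1 and TP3 (vertical axis) against the GC content of the longest transcript in percent (horizontal axis) for the 45 genes, with the 20 past an adjusted p of 0.05 colored. Rb1, Lin54, Lin9 and Rbl1 have the most negative gaps, at 41.2% to 42.5% GC, and most genes above 50% GC lie above 0.

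Among the regulators of Cdk1, Cdc25b and Pkmyt1 rose, although they act in opposite directions. Cdc25b, a phosphatase that activates Cdk1, had 33.1, 65.7 and 83.2 CPM in GEM-BCC and 132, 217, 119 and 264 in TP1 to TP4 (log2 fold change 1.504, SE 0.25, adjusted p = 7.6e-04). Pkmyt1, a kinase that inhibits Cdk1, had 11.5, 20.6 and 38.8 CPM against 47.7, 60.2, 55.01 and 65.8 (log2 fold change 1.37, SE 0.26, adjusted p = 0.00251). Neither gene overlapped between models, and GEM6 was the lowest tumor for both. Wee1, the other inhibitory kinase, had 16.8, 37.6 and 53.3 CPM in GEM-BCC and 46.2, 48.8, 45.4 and 28.1 in Tp-BCC (log2 fold change 0.23, SE 0.25, adjusted p = 0.541), with every Tp-BCC tumor inside the GEM-BCC range. Cdc25a (0.47, adjusted p = 0.149) and Cdc25c (0.81, adjusted p = 0.142) did not pass.

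Skp2, the F-box protein that targets p27, rose with an adjusted p of 0.0349 (log2 fold change 1.15), and the call was lost without GEM1, GEM2, GEM3, GEM5, GEM6, TP1 or TP3 in turn, with adjusted p from 0.0503 to 0.125 (the latter without TP1). It gave 1.75, adjusted p = 0.00408 with TP1 and TP3 and 0.10, adjusted p = 0.838 with TP2 and TP4. Its cofactor Cks1b had 52.6, 59.3 and 146 CPM in GEM-BCC and 107, 140.2, 92.96 and 157 in TP1 to TP4 (log2 fold change 0.75, SE 0.28, adjusted p = 0.0688). GEM3 lay above TP1, TP2 and TP3, and GEM1 just above TP3, so the groups overlapped. It rose without GEM3 (0.90, adjusted p = 0.00824) and with TP2 and TP4 alone (1.01, adjusted p = 0.0274), but not with TP1 and TP3 (0.44, adjusted p = 0.443). Cks2, a Cdk-binding adaptor, was near the threshold (1.03, adjusted p = 0.0481) and lost the call without any tumor in turn but GEM3, GEM8 and TP3, with adjusted p from 0.0616 to 0.191 (the latter without TP4).

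The transcription factors of the mitotic program gave some of the higher fold changes. Mybl2 (B-Myb) had 7.42, 15.3 and 30.6 CPM in GEM-BCC and 45.04, 70.6, 45.3 and 92.7 in TP1 to TP4 (log2 fold change 1.92, SE 0.29, adjusted p = 4.3e-04). Foxm1 had 22.3, 52.6 and 121 CPM against 149.5, 228, 129 and 224 (log2 fold change 1.63, SE 0.32, adjusted p = 0.00267). In both genes every Tp-BCC tumor was above every GEM-BCC tumor, GEM8 was the highest and GEM6 the lowest GEM-BCC tumor, and Foxm1 was at an adjusted p of 0.0549 with TP1 and TP3 alone. The MuvB subunits Lin9 (0.85, adjusted p = 0.162) and Lin54 (0.34, adjusted p = 0.616) did not pass with all 4 tumors and turned sign between the pairs. With TP1 and TP3 both rose (1.61, adjusted p = 0.00283 and 1.10, adjusted p = 0.0295), and with TP2 and TP4 Lin54 fell (-1.36, adjusted p = 0.0181) and Lin9 did not pass (-0.87, adjusted p = 0.063).

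Some counts may be shared with near-identical copies. In GENCODE transcripts, 100-base stretches of Ccnb1 were also in Ccnb1-ps (19.9%), Gm12856 (8.90%), Gm8416 (7.28%) and Gm4870 (2.56%), and those of Cks2 in Gm15452 (23.8%), Gm19945 (18.9%) and Gm12891 (4.38%). For Mybl2 18.8% were in Gm3320 and 0.318% in AC151978.1, for Tfdp1 11.4% in Gm7390, and for Foxm1 0.930% in Tex52. Of these other genes only Tex52 had values here. How far reads of these 5 genes were shared was not tested, and their values are uncertain in that respect.

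The promoters of 33 of the 45 genes were searched in RefSeq sequences (GRCm38.p6, 250 bases before to 50 after the start, both strands) for letters known from E2f, Foxm1 and B-Myb target genes. Entries were missing for Ccnd1, Ccnd2, Ccne2, Ccna2, Cdc25c, E2f4, E2f5, Foxm1, Lin9, Pkmyt1, Rb1 and Wee1. E2F letters (TTTCCCGC, TTTGGCGC, TTTCGCGC or TTTGCCGC) were in 9 of the 33 genes, 3 of the 15 that rose and 6 of the other 18, and in 2.26% of all 32851 promoters (2.61% of 27025 genes). The cell cycle homology region (CHR, TTTGAA or TTCGAA) was in 13, 7 of the 15 and 6 of the 18, and in 19.2% of promoters (21.7% of genes). CCAAT was in 21, 11 of the 15 and 10 of the 18, and in 37.4% of promoters (41.1% of genes). The letters of these motifs do not overlap in the sequences shown, and a match is not evidence of binding. The 150 bases before the start are shown for 4 genes that rose, Cdk1 (with all 3 motifs), Ccnf, E2f8 and Cdkn3 (with CHR and CCAAT), and for Rbl1, which did not pass and holds E2F letters, with motifs on either strand in capitals. They were chosen after the motifs had been found.
Cdk1, chr10:69352913-69353062, minus strand: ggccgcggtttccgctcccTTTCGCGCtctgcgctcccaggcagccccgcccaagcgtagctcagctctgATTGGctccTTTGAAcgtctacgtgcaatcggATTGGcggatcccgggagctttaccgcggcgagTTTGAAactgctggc
Ccnf, chr17:24251410-24251559, minus strand: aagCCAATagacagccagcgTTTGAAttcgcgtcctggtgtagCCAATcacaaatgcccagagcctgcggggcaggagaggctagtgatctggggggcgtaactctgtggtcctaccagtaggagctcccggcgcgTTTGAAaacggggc
E2f8, chr7:48881597-48881746, minus strand: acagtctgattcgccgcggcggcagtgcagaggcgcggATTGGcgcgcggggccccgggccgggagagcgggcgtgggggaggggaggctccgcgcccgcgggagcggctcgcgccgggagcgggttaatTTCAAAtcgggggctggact
Cdkn3, chr14:46760391-46760540, plus strand: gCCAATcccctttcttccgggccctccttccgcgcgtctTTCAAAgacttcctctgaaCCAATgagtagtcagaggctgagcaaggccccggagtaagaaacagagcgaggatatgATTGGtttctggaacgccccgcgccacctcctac
Rbl1, chr2:157204535-157204684, minus strand: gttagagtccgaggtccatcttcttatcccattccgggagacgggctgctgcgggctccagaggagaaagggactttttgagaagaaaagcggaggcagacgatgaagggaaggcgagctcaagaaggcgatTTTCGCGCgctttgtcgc

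GEM-BCC tumors varied among themselves in these genes. The median of the 45 genes, as log2 CPM minus the GEM-BCC mean of each gene, ran from -0.63 in GEM6 to 0.43 in GEM8, with an SD of 0.29 over 9 tumors. In TP1 to TP4 it was 0.88, 0.88, 0.71 and 0.84, with an SD of 0.08, so all 4 lay above GEM8. Over the 20 genes that rose it was 1.12, 1.47, 1.03 and 1.62, and over the 25 others 0.35, -0.31, 0.39 and -0.66. The SD over Tp-BCC tumors was 0.28 for the 20 and 0.52 for the 25, against 0.40 and 0.24 over GEM-BCC tumors. The SD of 0.08 for all 45 therefore does not show that the Tp-BCC tumors were alike in these genes. Which genes are among the 20 was set by these same tumors, so the medians of the 20 and the 25 are descriptions only.

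Genes controlled by these factors were counted from separate lists. Of 25 S-phase E2f targets, 15 rose and none fell by edgeR, against 11.1% and 8.35% of all tested genes (median log2 fold change 0.93), among them the replication helicase gene Mcm2, with 70.02, 123 and 212 CPM in GEM-BCC and 265, 472, 245 and 581 in TP1 to TP4 (log2 fold change 1.52, SE 0.30, adjusted p = 0.0029), and Mcm5 (1.53), Mcm7 (0.94) and the clamp gene Pcna (0.88). Of 25 G2/M targets of Foxm1 and B-Myb, 9 rose and none fell, against the same shares (median 0.99). The mitotic kinase gene Plk1 had 11.8, 28.4 and 61.2 CPM in GEM-BCC and 119, 224, 99.9 and 244 in Tp-BCC (log2 fold change 2.27, SE 0.35, adjusted p = 5.0e-04), without overlap, and Racgap1 (1.42), Kif20a (1.09) and Cenpa (1.13) also rose. The G2/M list had a median of 1.53 with TP1 and TP3 alone, where 16 rose (5.87% of all tested genes) and none fell (4.51%). With TP2 and TP4 its median was -0.12, and 6 rose and 3 fell, against 19.1% and 23.8% of all tested genes, so the share that rose was near that of all genes and the share that fell below it. With GC content removed 18 rose (15.1%) and none fell (13.3%), and Cenpa passed with the GC content of the longest transcript (1.63, adjusted p = 0.00802) but not with the median (0.82, adjusted p = 0.059). The S-phase list had a median of 0.86 with TP1 and TP3, where 6 rose and none fell, of 0.98 with TP2 and TP4, where 13 rose and 2 fell, and of 1.04 with GC content removed, where 19 rose and none fell. With TP1 and TP3 alone, Mcm2 (0.91, adjusted p = 0.089), Mcm5 (0.93, adjusted p = 0.186), Mcm7 (0.56, adjusted p = 0.158), Pcna (0.86, adjusted p = 0.103) and Cenpa (0.77, adjusted p = 0.255) did not pass, nor did Kif20a with TP2 and TP4 (0.38, adjusted p = 0.472), whereas Plk1 and Racgap1 rose with either pair. Calls were lost for Mcm7 without TP2 (adjusted p = 0.0528), for Pcna and Cenpa without TP2 or without TP4 (up to 0.0843 and 0.0975), and for Kif20a without GEM2, GEM4, GEM5, GEM6, GEM7, GEM9, TP1, TP2 or TP3 in turn (up to 0.123).

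**Figure D5:**
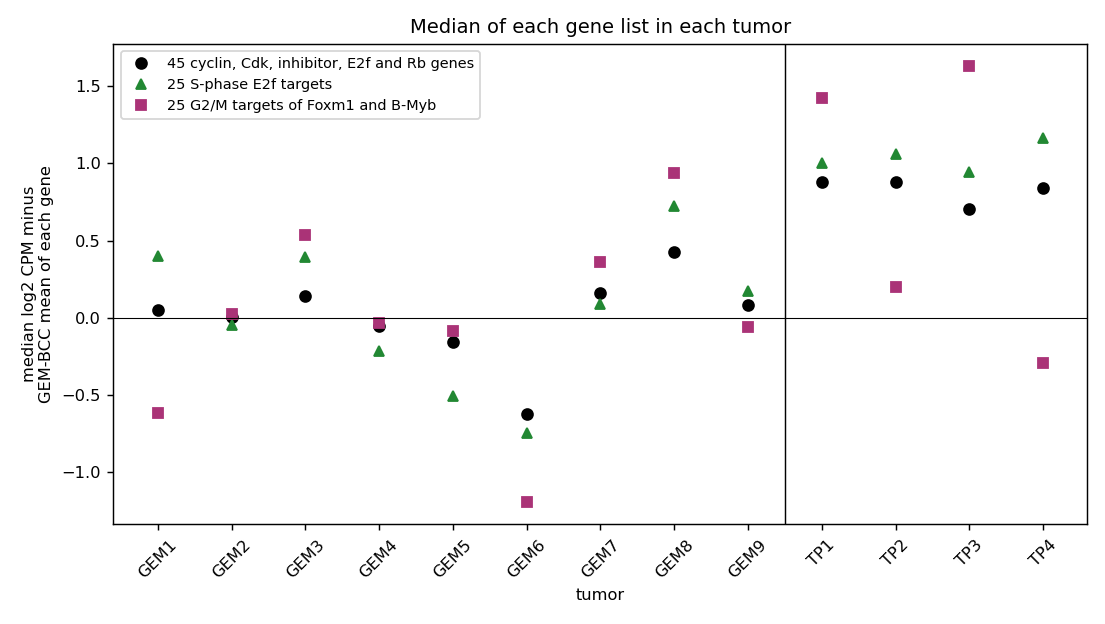
Median log2 CPM minus the GEM-BCC mean of each gene (vertical axis) in each of the 13 tumors (horizontal axis) for the 45 genes, 25 S-phase E2f targets and 25 G2/M targets. The 45 genes and the S-phase list are highest in all 4 Tp-BCC tumors, while the G2/M list is high in TP1 (1.42) and TP3 (1.63) and not in TP2 (0.20) and TP4 (-0.30).

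Of 19 genes of the anaphase-promoting complex, its activators and inhibitor, 5 rose (11.1% of all tested genes) and none fell (8.35%), with Ube2c at 14.3, 33.7 and 73.9 CPM in GEM-BCC and 204, 150.2, 115 and 154 in TP1 to TP4 (log2 fold change 2.001, SE 0.30, adjusted p = 4.1e-04), and Ube2s (1.08), Cdc20 (1.59) and Fzr1 (0.97) also higher, the last not past the threshold without TP2 or TP4 (adjusted p up to 0.117). With TP2 and TP4 alone, 9 of these 19 rose and 4 fell, against 19.1% and 23.8% of all tested genes, and with TP1 and TP3 3 rose and none fell, against 5.87% and 4.51%. Ube2s (0.50, adjusted p = 0.222) and Fzr1 (0.34, adjusted p = 0.464) did not pass with TP1 and TP3, whereas Ube2c and Cdc20 rose with either pair. Of 8 SCF genes, 1 fell and none rose, a count near the shares of all tested genes, and with TP2 and TP4 alone 4 fell and 1 rose, and with TP1 and TP3 1 fell and none rose. The 1 that fell with all 4 tumors, Btrc (-0.51, adjusted p = 0.0455), lost the call without any tumor in turn but GEM1, GEM3, TP2 and TP4 (up to 0.0914). It did not pass with TP2 and TP4 alone (-0.40, adjusted p = 0.115), though with TP1 and TP3 (-0.62, adjusted p = 0.0375), nor with GC content removed (-0.36, adjusted p = 0.0942), and its sign turned with that of the longest transcript (0.25, adjusted p = 0.574). With GC content removed 7 of the 19 and none of the 8 rose, and none and 2 fell, against 15.1% and 13.3% of all tested genes. These shares also stand beside the other counts with GC content removed that follow. None of the 3 genes of the Cdk-activating kinase passed with all 4 tumors, and with GC content removed 1 rose and their median went from -0.077 to 0.62 (Cdk7 -0.45, but -0.84, adjusted p = 0.0356 with TP2 and TP4 alone and 0.10 with GC content removed), nor any of 4 other MuvB and DREAM genes (Rbbp4 -0.32, and 0.43 with the GC content of the longest transcript removed). Of 6 tested other cyclins and inhibitors, 2 fell and none rose, against 8.35% and 11.1% of all tested genes. The counts were equal with either pair, though Cdkn1a was not among the 2 with TP2 and TP4. Of all tested genes 23.8% fell with TP2 and TP4 and 4.51% with TP1 and TP3, so equal counts do not mean equal results. With GC content removed 3 of the 6 fell and 1 rose. Cdkn1a (p21), the Cdk inhibitor induced by p53, had 35.4, 49.6 and 102 CPM in GEM-BCC and 14.3, 25.1, 11.8 and 31.98 in TP1 to TP4 (log2 fold change -1.56, SE 0.37, adjusted p = 0.0101), without overlap. It fell with TP1 and TP3 alone (-2.23, adjusted p = 0.0123) but did not pass with TP2 and TP4 (-1.10, adjusted p = 0.056). Cables1 had a log2 fold change of -1.48 (adjusted p = 0.00248) and fell with either pair.

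For the alleles carried by the strains, Trp53 had 29.9, 41.6 and 61.7 CPM in GEM-BCC and 20.02, 28.3, 19.8 and 30.4 in TP1 to TP4 (log2 fold change -0.84, SE 0.23, adjusted p = 0.0211), and lost the call without TP1 or TP3 (adjusted p up to 0.0616). TP4 was just within the GEM-BCC range and the other 3 Tp-BCC tumors below it. Trp53 did not pass with TP2 and TP4 alone (-0.58, adjusted p = 0.103), whereas with TP1 and TP3 it fell (-1.15, adjusted p = 0.0218). Ptch1 had 158, 238 and 462 CPM against 176, 166, 187 and 60.97 (log2 fold change -0.87, SE 0.34, adjusted p = 0.0809), and fell with TP2 and TP4 alone (-1.24, adjusted p = 0.0409) but not with TP1 and TP3 (-0.58, adjusted p = 0.329). By DESeq2 it passed as lower with all 4 tumors (-0.89, adjusted p = 0.0345). Both include RNA of cells other than the tumor cells, and a count over a whole gene does not show a deletion of part of it.

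Markers of the tissue and of other cells were summed in each tumor, and the most abundant gene named for each list is that of highest CPM over all 13 tumors. The counts of each marker list with all 4 tumors stand beside 11.1% of all tested genes that rose and 8.35% that fell. These shares were 19.1% and 23.8% with TP2 and TP4 alone, 5.87% and 4.51% with TP1 and TP3, and 15.1% and 13.3% with GC content removed. The 8 basal keratinocyte and BCC markers were all present, and none passed with all 4 tumors (summed CPM 12248, 14259 and 18063 in GEM-BCC and 9619, 16915, 8958 and 21166 in TP1 to TP4, most abundant gene Krt5). With TP2 and TP4 alone 1 rose and 2 fell, with TP1 and TP3 1 fell, and with GC content removed 1 fell. Krt5 passed as lower with the GC content of the longest transcript removed (-0.57, adjusted p = 0.0457) and not with the median (-0.55, adjusted p = 0.0542). Of 7 endothelial markers 3 rose (summed CPM 105, 211 and 255, and 332, 430, 330 and 376; Cdh5 most abundant), with Cdh5 at 1.29, Tie1 at 1.65 and Kdr at 1.26. All 3 tested of 5 adipocyte markers passed as higher (summed CPM 0.400, 0.986 and 3.26, and 10.8, 84.3, 10.7 and 15.1, with Fabp4 most abundant), namely Fabp4 (3.83), Adipoq (3.66) and Cidec. Cidec was at or near 0 in GEM-BCC and met the filter on low counts only through Tp-BCC. Its rise was therefore set by the filter and is not a result, and Cidec had no value in the fits of either pair. Of 8 fibroblast markers Pdgfra (2.14) and Pdgfrb (1.25) rose and Col1a1 (-1.12) and Dpt (-1.80) fell (summed CPM 12100, 28639 and 49157, and 15706, 23402, 15976 and 28350; Col1a2 most abundant). Of 8 macrophage markers 1 rose, a share near that of all tested genes, namely Cd68 (1.31; summed CPM 83.1, 178 and 432, and 254, 224, 255 and 450; Lyz2 most abundant). With TP2 and TP4 alone, 4 endothelial, 2 adipocyte, 2 fibroblast and 1 macrophage marker rose and 1 fibroblast and 1 macrophage marker fell. The fibroblast and macrophage counts were near or below the shares of all tested genes in that comparison. With TP1 and TP3, 2 endothelial and 1 each of the others rose and 1 fibroblast marker fell, and with GC content removed the counts were those of all 4 tumors but for 3 fibroblast markers that fell. DESeq2 gave Adipoq and Cidec no adjusted p. Single tumors decided the calls of Col1a1 (lost without GEM2, GEM5, GEM6, GEM7, GEM8, GEM9, TP1, TP2 or TP3, adjusted p up to 0.124), Cd68 (without TP2 or TP4, up to 0.118) and Adipoq (without TP2, 0.152). With TP1 and TP3 alone, Tie1 (adjusted p = 0.126), Pdgfrb (0.101), Dpt (0.0663), Cd68 (0.287) and Adipoq (0.275) did not pass, nor did Col1a1 with TP2 and TP4 (adjusted p = 0.258). The part of these cells in the rise of the cell cycle genes was not tested.

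Of 6 tested differentiated keratinocyte markers Krt10 fell (-2.80; summed CPM 27.2, 105 and 294, and 42.2, 54.2, 49.0 and 52.9; Sbsn most abundant; Flg had no value), and with TP1 and TP3 alone Krt10 did not pass (-2.99, adjusted p = 0.0804), while with GC content removed 2 of the 6 fell. Of 3 tested neutrophil markers S100a8 (-3.60) and S100a9 (-3.27) passed as lower, both at few counts (summed CPM 0.824, 2.75 and 8.18, and 1.06, 1.03, 1.68 and 2.28, with Csf3r most abundant and Ly6g at 0 in Tp-BCC). S100a8 and S100a9 met the filter on low counts only through GEM-BCC, so their fall was set by the filter and is not a result. Their calls were lost without any 1 Tp-BCC tumor for S100a8 (adjusted p up to 0.0919) and without GEM2, GEM7, GEM8, TP1, TP2 or TP3 for S100a9 (up to 0.106), and for both with either pair alone and with GC content removed (the last at 0.0558 and 0.0959). T cell markers (0.461, 2.97 and 4.77, and 1.47, 1.99, 1.68 and 2.57; Cd4 most abundant; Trac had no value) and B cell markers (0.231, 0.748 and 1.23, and 0.648, 0.964, 0.958 and 1.14; Cd79a most abundant) were at low levels, and the 1 tested gene of each did not pass. None of 3 tested skeletal muscle markers passed (3.81, 4.74 and 8.54, and 1.77, 11.3, 2.81 and 131) with all 4 tumors, although with TP2 and TP4 alone 2 rose and with TP1 and TP3 1 fell. The median log2 fold change of the 3 was 1.70 with TP2 and TP4 and -0.99 with TP1 and TP3. TP4 stood out through Acta1, the most abundant of the 7 over all tumors, and it was at most 0.128 CPM in GEM-BCC.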

How the data were processed

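Poly(A) RNA of 13 tumors was sequenced by the authors, who cleaned reads with SOAPnuke, aligned them with Bowtie2 2.3.4.3 to GRCm39 transcripts and quantified them strand-specifically with RSEM 1.3.1. The deposited values are expected counts per gene symbol, neither rounded nor normalized. Of 21100 genes, 16687 had a value in all tumors, 1932 in GEM-BCC only, 65 in Tp-BCC only and 2416 in none. The origin of missing values is not given in the sources used here.

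Expected counts were rounded. Genes with a value in all 13 tumors and at least 10 counts in at least 4 were tested (14390), which is 1 reading of the filter of the study. Models were compared in R 4.3.3 with edgeR 4.0.16 (TMM, robust quasi-likelihood F test, 2-sided, no covariate) over the whole table, with Benjamini-Hochberg adjustment over all tested genes, after a test on simulated data. SE is the size of the log2 fold change divided by the square root of F, and log2 CPM used a prior count of 2. DESeq2 1.42.0 and other scalings, filters and left-out tumors were alternatives. Tables were made with Python 3.11.15 and pandas 2.3.3.

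GC content came from GENCODE vM21 protein-coding transcripts, matched by symbol for 14095 of the 14390 genes, and was removed as a per-tumor lowess offset (span 0.3). It was first taken as the median over transcripts of a gene. The version with the longest transcript, whose length also serves for levels per kilobase, was added after the results with the median had been seen, and both are reported. The annotation used for counting was another one.

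The 45 genes, the role groups and all other lists were chosen with earlier results of these data known. Values in each tumor are given for the genes past an adjusted p of 0.05 (at most the 16 of smallest p) and the gene of highest mean CPM in each role group, and Rb1 and other genes given outside that rule were chosen after their values were seen. Trp53 and Ptch1 are given since the strains carry their alleles. Of other lists at most 4 genes are named, those of highest mean CPM among genes past the threshold, otherwise the highest. At these depths the lowest count of any of the 45 genes was 41.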

Additional observations from a re-analysis of the deposited data

Results flagged for a closer look

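Of 90 sets of values (45 genes in 2 groups), 7 held a tumor whose log2 CPM was separated from its nearest neighbor by more of the group's range than the 95% critical value of Dixon's test. Chance gives about 1 in 20. In GEM-BCC, GEM6 was far below the others in E2f7 (log2 CPM 0.65, group median 2.20), Cdc25b (5.05, median 6.04) and Wee1 (4.08, median 5.23). GEM3 was far above in Cdkn3 (3.64, median 2.04) and GEM1 in E2f4 (6.31, median 5.67). In Tp-BCC, TP4 was far below in E2f3 (4.22, median 4.96) and Wee1 (4.81, median 5.52). The median of the 45 genes was also lowest in GEM6 among all 13 tumors.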

How the results depend on the processing

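Of 1215 values of the 45 genes under 27 alternatives, 1087 kept their sign and their side of the threshold, 59 lost the call, 47 gained it and 22 changed sign, none of them in the 20 genes that rose. Which genes are among the 20 was set by these same tumors, so the lack of sign changes in them is a description only. The 20 rising genes were 16 to 20 with a tumor left out, and 0 to 2 fell. Genes past the adjusted p numbered 2792, and 1545 to 3020 with a tumor left out (1545 without TP2, 1836 without TP4), 6119 without TP1 and TP3, 1484 without TP2 and TP4, and 4836 with GC content and length of the longest transcript removed. By the thresholds of the study 801 became 439 with 10 counts in 10 tumors, 1850 without TP1 and TP3, 478 without TP2 and TP4, and 594 to 853 with a tumor left out. Falling genes among the 45 were 2 by DESeq2, 2 with counts summed per mouse, 7 without TP1 and TP3, 2 with GC content removed and 1 with that of the longest transcript, alone or with length. Their median log2 fold change was 0.71 (without TP2) to 0.83 with a tumor left out, 0.94 with GC content removed and 0.90 with that of the longest transcript. The versions with the longest transcript were chosen after seeing the data. The cause of these changes was not tested.

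Signs changed without TP1 and TP3 in Ccna2 (-0.088), Ccnb1 (-0.064), Rbl1 (-0.997), Lin9 (-0.87) and Lin54 (-1.36), the last past the threshold; without TP2 and TP4 in Ccnd3 (-0.12), Ccng2 (0.055), Cdk6 (0.11), Cdkn2d (-0.067), E2f2 (-0.087), E2f5 (0.36) and Rb1 (0.50); with GC content removed in Ccng2 (0.019) and Cdkn1b (0.23, also 0.23 with the longest transcript and 0.30 with its length); and with GC content and length of the longest transcript removed in Cdk6 (0.25). With a tumor left out E2f5 ran from -0.53 to 0.026, Rbl1 from -0.0085 to 0.64 and Lin54 from -0.042 to 0.67.

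With tumor number as a replicate block, 178 genes passed (178 by the thresholds of the study), of the 45 genes none, with a median log2 fold change of 0.64 and -0.038 for Rbl1. Equal numbers share no animal, and their deviations correlated at -0.38, -0.12, -0.10 and -0.18, so the numbers pair no tumors.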
